A study of Mus musculus with 6 samples.

Results

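Insulin and IGF1 act on B cells through a pair of closely related receptor tyrosine kinases and a small set of proteins that relay their signal. The genes described here are the receptors Insr, Igf1r and Igf2r, the docking proteins Irs1 and Irs2, the adaptors Grb10, Grb2 and Shc1, and the exchange factor Sos1. They were chosen by gene symbol from the deposited table, and all 9 were found among its 21448 genes. RNA had been sequenced from primary lymphoma B cells taken from E mu-Myc mice, whose transgene expresses Myc in B cells. The labels give 3 libraries as PRDM15 KO (labelled knockout here) and 3 as wild type, and the libraries of both groups came from cells that carry the Myc transgene and were kept in culture with IL7. The protocols state that OHT (4-hydroxytamoxifen) at 50 nM for 24 hours was used to delete Prdm15, ethanol was the control, and cells were collected 3 days after the exposure. Library titles give the genotype and a replicate number, so that OHT went to the labelled knockout cells is inferred. The 3 replicates are described as biological, but not as separate mice, so p-values speak for these libraries and their spread, which may be technical. PRDM15 is a zinc finger protein, and the comparison asks which genes of the insulin and IGF route differ between the labelled groups. If only the labelled knockout cells received OHT, effects of OHT and of the deletion cannot be told apart.

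As background, insulin binds INSR and the insulin-like growth factors bind mainly IGF1R, and the activated receptors phosphorylate the docking proteins IRS1 and IRS2, which recruit PI3K. SHC1 and GRB2 link the same receptors, and many others, through SOS1 to RAS and the ERK kinases. GRB10 binds the activated receptors and dampens their signal. IGF2R does not signal as a kinase; it carries IGF2 and mannose 6-phosphate tagged enzymes to lysosomes.

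Insr and Igf1r were called lower in the libraries labelled knockout by limma with libraries paired by replicate number, an alternative setting. The planned main test was the unpaired limma fit, which called 0 members. No other member passed in limma. Insr fell to 26.8% of the wild type mean and Igf1r to 60.6%. Levels are reads assigned to a gene, scaled to an effective library size (RPM), over totals of 28852951 to 47255421 reads per library, and log2 changes are of the value plus 1, labelled knockout minus wild type. The test took in 10533 genes whose mean level over all 6 libraries was 1 or more, 8 of the 9 members among them. With the replicate number as a block (the paired fit) limma called 2 members lower and 0 higher at an adjusted p under 0.05, against 0.741% of all tested genes called lower and 0.133% called higher. Without the block it called 0 members, with 2 at an unadjusted p under 0.05, and 0.00949% and 0% of all tested genes lower and higher. Without the block edgeR called 0 members (2 lower and 0 higher at an unadjusted p under 0.05) and DESeq2 called 1 lower, Insr, and 0 higher, against 0.75% and 0.294% of tested genes. In the unpaired limma fit Insr was also the 1 member called when only genes with a mean of at least 5 were tested (0.0221% of genes lower) or when DESeq2 size factors scaled the libraries (0.0285% lower). The median log2 change of the 8 tested members was -0.09, against -0.03 over all tested genes. With all 6 libraries, limma called Igf1r in the paired fit but under none of the unpaired settings run.

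Prdm15 itself had 40.2, 40.9 and 39.2 RPM in labelled knockout replicates 1, 2 and 3, against 29.2, 47.3 and 41.3 in wild type replicates 1, 2 and 3. The groups overlapped, and reads summed over a gene cannot tell if part of it is missing, so directions rest on the labels alone. Markers of the B lineage were present in every library, and the summed level of 10 of them was 1787, 2371 and 2189 in labelled knockout replicates 1, 2 and 3, against 1829, 2371 and 2406 in the wild type libraries. Of these 10 markers, 6, 5 and 1 were higher in the labelled knockout library of pairs 1, 2 and 3, their median log2 change was -0.16 (from -1.15 to 0.24), and 0 passed in limma, paired or unpaired. Markers of macrophages and other myeloid cells were high in labelled knockout replicates 2 and 3. The summed level of 12 such markers was 35.9, 2114 and 1136 in labelled knockout replicates 1, 2 and 3, against 56.8, 199 and 158 in the wild type libraries. All 12 were above 0, and 3, 12 and 12 of them were higher in the labelled knockout library of pairs 1, 2 and 3. Markers of T and NK cells summed to at most 10.6 in any library, stromal and endothelial markers to at most 3.11 and erythroid markers to at most 1.15. The 3 plasma cell markers summed to 37.5, 51.8 and 63.2 in labelled knockout replicates 1, 2 and 3, against 44.6, 53.1 and 44.9 in wild type.

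Insr, the receptor for insulin, showed the largest separation of the groups among the members. It stood at 9.05, 10.3 and 7.85 RPM in labelled knockout replicates 1, 2 and 3, against 34.6, 30.9 and 35.9 in wild type replicates 1, 2 and 3. These rest on 272 to 409 reads per library in the labelled knockout group and 1232 to 1678 in wild type. The highest labelled knockout library lay below the lowest wild type library, and each library's exact Poisson 95% interval, which covers counting error only, was far narrower than that gap (7.03 to 11.3 over the labelled knockout libraries and 29.2 to 37.7 over wild type). The mean was 9.05 ± 1.21 in the labelled knockout libraries and 33.8 ± 2.61 in wild type (SD, n = 3 each). The log2 change was -1.80 with an SE of 0.123 and an adjusted p of 0.0187 in the paired limma fit (interval -2.11 to -1.48), and the unpaired adjusted p was 0.0637.

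Insr passed in the paired fit without having a smaller p of its own there. Its unadjusted p was 2.13e-05 paired and 1.23e-05 unpaired in limma, and it ranked 12 by paired p and 2 by unpaired p among the 10533 tested genes. Adjustment depends on the p-values of all genes, and 1432 genes were lower and 781 higher at an unadjusted p under 0.05 in the paired fit, against 306 lower and 122 higher in the unpaired fit. By size of change Insr ranked 21 among the falls. A log2 fall of at least 1 was seen in 0.665% of tested genes. The paired call was lost when pair 2 or pair 3 was left out (limma adjusted p = 0.109 and 0.123), with log2 changes of -1.94 and -1.66. Without pair 1 the adjusted p was 0.000297, and limma then called 2 members lower and 0 higher, against 3.36% and 4.61% of tested genes. Log2 changes of Insr were -1.83, -1.50 and -2.06 in pairs 1, 2 and 3. The sum of myeloid markers was lower in the labelled knockout library of pair 1 and higher in those of pairs 2 and 3, and its part in the fall was not tested.

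Igf1r, the receptor for IGF1, fell by less, and by nearly the same amount in every pair. It stood at 30.9, 34.9 and 24.0 RPM in labelled knockout replicates 1, 2 and 3, against 50.0, 58.0 and 40.2 in wild type replicates 1, 2 and 3. The order of the 3 replicate numbers was the same in both groups, and the highest labelled knockout library lay below the lowest wild type library. The mean was 29.9 ± 5.53 in the labelled knockout libraries and 49.4 ± 8.92 in wild type (SD, n = 3 each). Log2 changes were -0.67, -0.72 and -0.72 in pairs 1, 2 and 3. The mean change of -0.70 had an SE of 0.0574 and an adjusted p of 0.0313 in the paired limma fit (interval -0.85 to -0.56), against an SE of 0.192 and an adjusted p of 0.947 in the unpaired fit. The paired call was lost without pair 2 or pair 3 (limma adjusted p = 0.195 and 0.163), while the change stayed at -0.70 in both. The part of the myeloid markers in this fall was not tested.

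Insr and Igf1r were the 2 of 8 tested members whose groups did not overlap with the labelled knockout libraries lower, against 6.29% of all tested genes, and 0 members were so with them higher, against 3.21%. Tests on whole reads recovered from the deposited values also called both lower with the pairs: edgeR did so (adjusted p = 0.0269 for Insr and 0.0328 for Igf1r, against 0.323% of tested genes called lower and 0.0475% higher), and so did DESeq2 (1.38e-24 and 1.14e-09, against 3.99% called lower), which also called 1 member, Grb10, higher (3.02% of tested genes called higher).

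**Figure D1:**
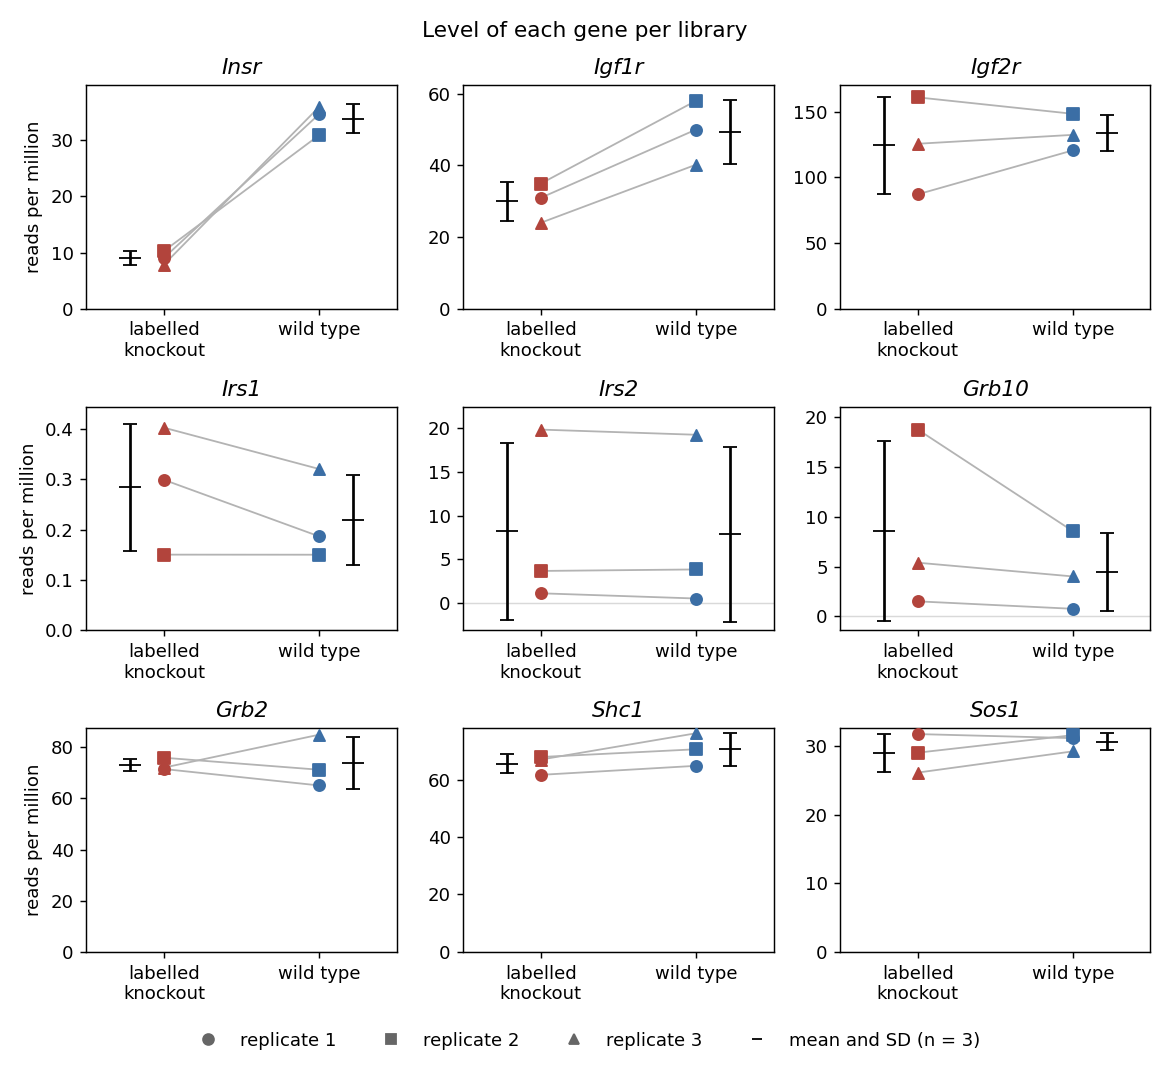
Level of each of the 9 genes in RPM of effective library size (vertical axes, a separate scale per gene) in the labelled knockout libraries (red, left) and wild type libraries (blue, right), with 1 symbol per replicate number, lines joining equal numbers, and bars that give the mean with its SD (n = 3). The Insr points were between 7.85 and 10.3 in the labelled knockout libraries and between 30.9 and 35.9 in wild type, while Irs2 and Grb10 differed mainly by replicate number.

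The promoter of Igf1r is shown because its fall was nearly equal in the 3 pairs and because no window was found for Insr. RefSeq windows of 250 bases before to 50 after a gene's start (GRCm38.p6) were matched by symbol for 8 of the 9 members. The Igf1r window, chr7:67952007-67952306 on the plus strand, had a GC content of 76%, against a median of 52.7% over all 32851 mouse windows. Capitals mark the GC box GGGCGG, a motif of SP1-type factors, which was searched on both strands (also as CCGCCC).
Igf1r: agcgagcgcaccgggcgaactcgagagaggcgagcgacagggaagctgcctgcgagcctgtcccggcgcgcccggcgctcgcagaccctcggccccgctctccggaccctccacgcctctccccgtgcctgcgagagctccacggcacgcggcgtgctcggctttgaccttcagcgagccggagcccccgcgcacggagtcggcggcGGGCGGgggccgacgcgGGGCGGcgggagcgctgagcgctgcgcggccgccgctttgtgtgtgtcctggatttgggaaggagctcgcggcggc
The GC box occurred 2 times in this window and at least 1 time in 35.7% of all windows. Members not called lower also had it, in a window of Grb10 (5 times), Igf2r (3), Irs1 (2), Irs2 (1) and Shc1 (1). The windows of Grb2 and Sos1 had none. The Grb10 window with GC boxes had a GC content of 80%. The E-box CACGTG, the motif of MYC and MAX, was not among its letters. A match describes letters and does not show binding.

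The change of Insr was larger than that of Igf1r. The difference between their log2 levels in a library was -1.67, -1.67 and -1.50 in labelled knockout replicates 1, 2 and 3, against -0.52, -0.89 and -0.16 in wild type. The mean of this difference was 1.09 log2 units lower in the labelled knockout libraries (-1.61 ± 0.100 against -0.52 ± 0.365 in wild type, SD, n = 3 each). An exact two-sided permutation test gave p = 0.1, the smallest this design allows, and an exact sign-flip test over the 3 pairs gave p = 0.25, again the smallest possible. Scaled to the length of annotated exons, Insr stood at 0.357, 0.359 and 0.3999 times the level of Igf1r in the labelled knockout libraries, against 0.847, 0.651 and 1.09 times in wild type.

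Igf2r, the receptor that carries IGF2 and lysosomal enzymes inward, had the highest level of the 3 receptors in every library and did not pass. It stood at 87.0, 160.8 and 125 RPM in labelled knockout replicates 1, 2 and 3, against 120.5, 148 and 132 in wild type. The groups overlapped, with both the lowest and the highest library in the labelled knockout group. The log2 change was -0.14 (95% interval -0.44 to 0.15 in the paired limma fit, adjusted p = 0.516), and -0.46, 0.12 and -0.08 in pairs 1, 2 and 3. In both groups Igf2r and the sum of myeloid markers were highest in replicate 2 and lowest in replicate 1. Wild type replicate 2 had more Igf2r than labelled knockout replicate 3 (148 against 125), with myeloid sums of 199 and 1136. The part of myeloid cells in this order was not tested, and in bulk RNA fewer cells of a type and less RNA per cell cannot be told apart.

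The docking proteins differed in level and in how they varied. Irs1 was close to the limit of detection, with 9, 6 and 17 reads in labelled knockout replicates 1, 2 and 3, against 7, 6 and 15 in wild type replicates 1, 2 and 3. This is 0.299, 0.151 and 0.403 RPM in the labelled knockout libraries, against 0.187, 0.150 and 0.321 in wild type, and it was below the minimum for the test. The exact Poisson 95% intervals of the 6 libraries together ran from 0.0552 to 0.645 RPM, and the intervals of the groups overlapped.

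Irs2 differed by replicate number far more than by group. It stood at 1.13, 3.69 and 19.9 RPM in labelled knockout replicates 1, 2 and 3, against 0.534, 3.86 and 19.3 in wild type replicates 1, 2 and 3. Libraries with the same number had close levels in numbers 2 and 3, where log2 changes were -0.05 and 0.04, and differed by 0.47 in number 1, where the levels rest on 34 and 20 reads. Of the spread of Irs2 over the 6 libraries (sum of squares of log2 values), 99.1% lay between replicate numbers and 0.284% between the groups. The log2 change was 0.15 (95% interval -0.23 to 0.54 paired, and -2.71 to 3.02 unpaired; limma adjusted p = 0.589 and 0.9998). Exons of Irs1 and Irs2 overlap an annotated gene on the opposite strand, Gm9747 and 9530052E02Rik, and the strand setting of the counting is not given in the sources used here, so reads of each such pair cannot be told apart.

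The promoter of Irs2 is shown because its level set the replicate numbers apart and because it holds an E-box, which was found in the windows of Irs1, Irs2 and Igf2r and in 7.15% of all 32851 windows. The window is chr8:11008880-11009179 on the minus strand (GRCm38.p6, RefSeq), printed in the direction of the gene, with the E-box CACGTG in capitals; this motif reads the same on both strands.
Irs2: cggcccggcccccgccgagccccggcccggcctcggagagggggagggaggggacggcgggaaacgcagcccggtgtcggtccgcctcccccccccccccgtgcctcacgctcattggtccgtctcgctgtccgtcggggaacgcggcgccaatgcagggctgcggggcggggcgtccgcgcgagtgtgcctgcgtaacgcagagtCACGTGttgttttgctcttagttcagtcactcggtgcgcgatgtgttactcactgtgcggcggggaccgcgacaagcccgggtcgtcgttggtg
The E-box starts at position -44 relative to the RefSeq start. The Irs2 window has a GC content of 72%, and the Igf2r window holds 2 E-boxes and the Irs1 window 1. Irs2 and Igf2r did not pass in limma, edgeR or DESeq2, with or without the pairs, and Irs1 was below the minimum for those tests.

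Grb10, the adaptor that dampens insulin and IGF1 receptor signals, was the member with higher values in the labelled knockout library of every pair among those tested. It stood at 1.497, 18.8 and 5.38 RPM in labelled knockout replicates 1, 2 and 3, against 0.748, 8.55 and 4.00 in wild type replicates 1, 2 and 3. The groups overlapped widely, and replicate 2 was the highest and replicate 1 the lowest in both. Log2 changes were 0.51, 1.05 and 0.35 in pairs 1, 2 and 3, and 16.7% of all tested genes were likewise higher in all 3 pairs. The mean change of 0.64 did not pass in limma (paired interval 0.19 to 1.08, adjusted p = 0.156; unpaired 0.9998) or in edgeR with the pairs (0.146). DESeq2 with the pairs called it higher (adjusted p = 0.0414), where 3.02% of tested genes were called higher. The sum of myeloid markers was also highest in labelled knockout replicate 2. In pair 1 that sum was lower in the labelled knockout library, while Grb10 was higher. Grb10 rests there on 45 reads in the labelled knockout library and 28 in wild type. Exact Poisson intervals of these 2 libraries, which cover counting error only, did not overlap. They ran from 1.092 to 2.003 RPM in labelled knockout replicate 1, and from 0.497 to 1.081 in wild type replicate 1. The part of myeloid cells in the Grb10 values was not tested.

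Grb2, the adaptor between receptors and SOS1, was at like levels in both groups. It stood at 71.5, 75.9 and 72.1 RPM in labelled knockout replicates 1, 2 and 3, against 65.1, 71.2 and 84.9 in wild type. The labelled knockout libraries lay inside the range of the wild type ones. The log2 change was -0.0032 (paired limma interval -0.23 to 0.22, adjusted p = 0.987), and its sign turned under other scalings (0.052 with equal totals).

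Shc1, whose protein is phosphorylated by the receptors and binds GRB2, was slightly lower in the labelled knockout library of each pair without passing. It stood at 61.6, 67.8 and 67.0 RPM in labelled knockout replicates 1, 2 and 3, against 64.8, 70.5 and 76.1 in wild type. The groups overlapped, and the log2 change was -0.10 (paired limma interval -0.25 to 0.04, adjusted p = 0.346). With Insr and Igf1r, Shc1 made 3 of the 8 tested members that were lower in all 3 pairs, against 29.9% of all tested genes.

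Sos1, which loads RAS with GTP, stood at 31.8, 29.1 and 26.2 RPM in labelled knockout replicates 1, 2 and 3, against 31.2, 31.6 and 29.2 in wild type. The groups overlapped, with the labelled knockout library higher in pair 1 and lower in pairs 2 and 3. The log2 change was -0.08 (paired limma interval -0.26 to 0.09, adjusted p = 0.527).

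**Figure D2:**
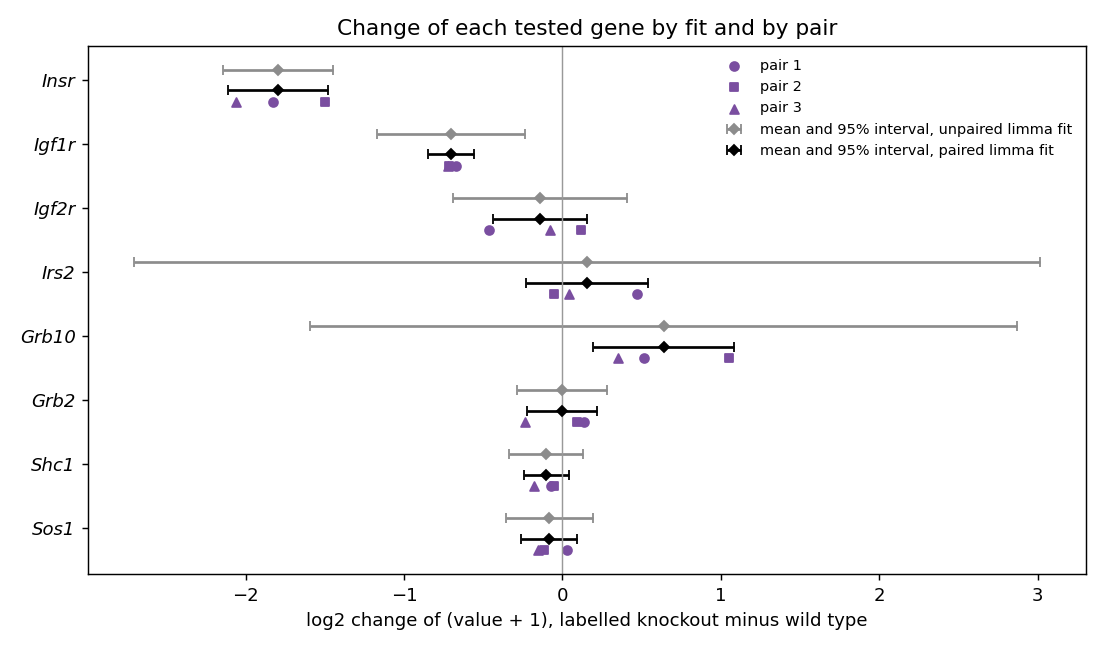
Difference of log2(value + 1) between labelled knockout and wild type (horizontal axis, labelled knockout minus wild type) of the 8 tested genes, with the mean and 95% interval of the unpaired (grey) and paired (black) limma fits and 1 purple symbol per pair. The interval of Igf1r was -1.17 to -0.24 unpaired and -0.85 to -0.56 paired, while that of Irs2 was -2.71 to 3.02 unpaired and -0.23 to 0.54 paired.

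Set against each other per kb of annotated exon, the adaptor Grb2 was the most abundant of the 9 transcripts and Irs1 the least. Means per kb were 25.1 ± 0.825 for Grb2 in the labelled knockout libraries, against 25.3 ± 3.48 in wild type (RPM per kb, SD, n = 3 each). Igf2r followed at 13.4 ± 3.96 in the labelled knockout libraries, against 14.4 ± 1.498 in wild type, and Shc1 at 11.6 ± 0.595, against 12.5 ± 1.004 in wild type. The ranges of Igf2r and Shc1 overlapped in both groups. In wild type, Igf1r (2.94 ± 0.531), Sos1 (2.90 ± 0.119) and Insr (2.46 ± 0.190) lay close together, with means that differed by no more than the SD of Igf1r. In the labelled knockout libraries these 3 separated, to 2.74 ± 0.265 for Sos1, 1.78 ± 0.330 for Igf1r and 0.659 ± 0.0878 for Insr, and their ranges did not overlap. Irs2 and Grb10 took no fixed place, since their levels per kb ran from 0.0845 to 3.14 and from 0.0823 to 2.06 over the 6 libraries. Irs1 was at 0.0311 ± 0.0139 in the labelled knockout libraries, against 0.0240 ± 0.00982 in wild type. Lengths came from an annotation other than the authors', so these levels are approximate.

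**Figure D3:**
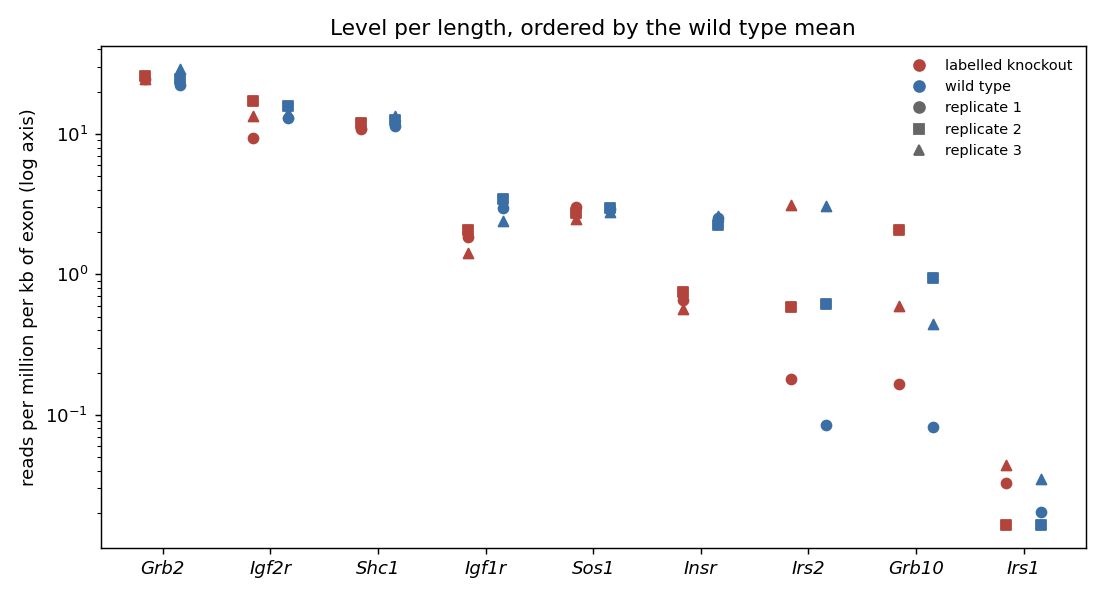
Level of each gene in RPM per kb of annotated exon (log axis), ordered by the wild type mean, with the labelled knockout libraries in red to the left of the wild type libraries in blue and 1 symbol per replicate number. Insr averaged 0.659 in the labelled knockout libraries and 2.46 in wild type, the widest gap between the groups among the 9 genes apart from the scatter of Irs2 and Grb10.

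The members differed in how much of their spread followed the group. Of the spread of Insr over the 6 libraries, 98.3% lay between the groups, 0.123% between replicate numbers and 1.60% in neither. For Igf1r the shares were 72.7%, 27.2% and 0.0654%. The between-group share was 29.8% or less in the other members, and the median over all tested genes was 9.56% between the groups and 74.5% between replicate numbers. The between-group share of Insr was above that of 99.95% of tested genes and that of Igf1r above that of 96.4%. For Grb10, 90.8% lay between replicate numbers. For Grb2, 51.5% lay in neither and 48.4% between replicate numbers, and the share between replicate numbers was 74.7% for Igf2r, 63.9% for Sos1 and 61.1% for Shc1.

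**Figure D4:**
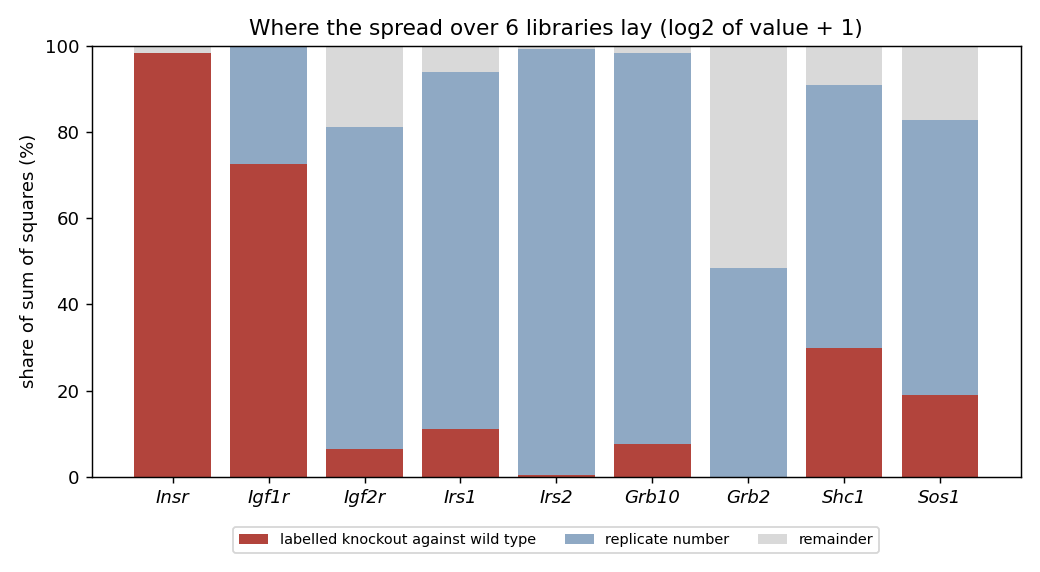
Share of the sum of squares of log2(value + 1) over the 6 libraries (vertical axis, %) that lay between labelled knockout and wild type (red), between replicate numbers (blue) and in neither (grey), for each of the 9 genes. The red share was 98.3% for Insr and 72.7% for Igf1r, and the blue share was 99.1% for Irs2.

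The genes whose levels followed Insr most closely over the 6 libraries were Fem1a, Haao, Ist1, Prelid1 and Oxct1, with Pearson r between 0.991 and 0.997 on log2 values. The 6 points share their split into groups, and the values are a description. Genes chosen by r share the pattern of Insr by selection, so their limma calls below are not separate support. In the paired fit 0.741% of all tested genes were called lower. Oxct1, an enzyme of ketone body use, stood at 119, 131 and 122 RPM in labelled knockout replicates 1, 2 and 3, against 228, 233 and 224 in wild type (log2 change -0.87, limma adjusted p = 0.0125 paired and 0.0637 unpaired). Haao, an enzyme of tryptophan breakdown, averaged 8.38 ± 0.940 in the labelled knockout libraries and 18.9 ± 0.469 in wild type (SD, n = 3 each; log2 change -1.09, limma adjusted p = 0.0313 paired and 0.150 unpaired). Prelid1, which moves lipid between mitochondrial membranes, also fell in the paired fit (log2 change -0.57, limma adjusted p = 0.0313 paired and 0.150 unpaired). Fem1a and Ist1 had small changes of -0.20 and -0.14 that did not pass (paired limma adjusted p = 0.139 and 0.217).

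For Igf1r the closest genes were Tk1, Eif4a2, Fam172a, Rassf1 and Smg1, with r between 0.983 and 0.992. Tk1, the cytosolic thymidine kinase, fell (log2 change -1.12, limma adjusted p = 0.0255 paired and 0.884 unpaired). It stood at 26.2, 33.4 and 16.9 RPM in labelled knockout replicates 1, 2 and 3, against 60.8, 64.7 and 41.5 in wild type. Tk1 was chosen by r, so a fall and an order of replicate numbers like those of Igf1r follow from the choice. The other 4 had changes between -0.32 and -0.17 that did not pass. Insr and Igf1r correlated with each other at r = 0.862.

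Around the members, 72 other genes of the insulin and IGF route were listed by role; all matched the table, 49 were tested and 0 passed limma in the paired or the unpaired fit. At an unadjusted p under 0.05, 5 of the 49 were lower and 4 higher in the paired fit, against 1432 and 781 of all 10533 tested genes, and 2 and 0 in the unpaired fit, against 306 and 122. Their median log2 change was 0.01, against -0.03 over all tested genes, and 14 of the 49 were lower and 7 higher in all 3 pairs, against 29.9% and 16.7% of all tested genes. edgeR with the pairs called 0 of them (4 lower and 4 higher at an unadjusted p under 0.05), and DESeq2 with the pairs called 1 lower, Nedd4 (adjusted p = 0.00174), against 3.99% of all tested genes. Nedd4, a ubiquitin ligase that acts on IGF1R through GRB10, was at 336 ± 24.9 in the labelled knockout libraries, against 438 ± 75.0 in wild type (SD, n = 3 each; log2 change -0.37, paired limma adjusted p = 0.113).

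Among ligands and their binding proteins, insulin was close to absent and Igf1 was highest in the labelled knockout libraries with the highest sums of myeloid markers. Ins1 reached at most 0.0665 and Ins2 at most 0.0502 RPM in any library, and Igf2 at most 0.532. Igf1 stood at 1.53, 57.9 and 28.1 RPM in labelled knockout replicates 1, 2 and 3, against 2.75, 4.26 and 2.70 in wild type. It was lower than wild type in labelled knockout replicate 1 and higher in replicates 2 and 3, the libraries in which the 12 myeloid markers summed to 2114 and 1136. In wild type replicates 1, 2 and 3 these markers summed to 56.8, 199 and 158, and Igf1 was no higher in replicate 3 than in replicate 1. The log2 change of Igf1, 1.96, did not pass (unpaired limma interval -0.77 to 4.70, adjusted p = 0.9998, and paired adjusted p = 0.248). Without pair 1 the paired limma fit called 3 of the 49 other genes of the route higher, Igf1, Dok2 and Ptpre. In that fit 4.61% of all tested genes were called higher. The part of myeloid cells in the Igf1 values was not tested. Igfbp2 and Igfbp4 bind IGFs outside the cell. Of the spread of Igfbp4, 99.5% lay between replicate numbers. For Igfbp2 this share was 53.9%, with 17.8% between the groups. The log2 change of Igfbp2 was -1.09 (paired limma adjusted p = 0.362), and -3.02 in pair 1, -0.11 in pair 2 and -0.13 in pair 3. Igfbp4 stood at 2.26, 45.2 and 21.3 in labelled knockout replicates 1, 2 and 3, against 3.10, 47.7 and 19.4 in wild type, and Igfbp2 at 0.532, 4.17 and 0.166, against 11.4, 4.56 and 0.278 in wild type.

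Of 19 tested docking proteins and adaptors outside the members, 0 passed with all 6 libraries. Gigyf1, which binds GRB10, stood at 17.5, 14.5 and 17.8 in the labelled knockout libraries, against 22.4, 23.1 and 20.5 in wild type, with no overlap (log2 change -0.39, paired limma adjusted p = 0.157). Its relative Gigyf2 had a change of -0.11 and Dok2 of 0.62. Irs4, a further docking protein, reached at most 0.240 in any library.

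Of 4 tested genes for related receptors and receptor processing, 0 passed. Furin, a protease that cleaves the INSR and IGF1R precursors, stood at 14.4, 13.7 and 14.3 in the labelled knockout libraries, against 10.7, 9.45 and 12.6 in wild type, with no overlap (log2 change 0.35, paired limma adjusted p = 0.163). Ide, the insulin-degrading enzyme, had a change of -0.07, M6pr, the other mannose 6-phosphate receptor, of -0.04 and Pcsk7 of 0.02. Of 14 tested phosphatases and ligases that act on the receptors or docking proteins, 0 passed in limma with all 6 libraries. Cul7 (-0.44), Fbxo40 (-0.22) and the tyrosine phosphatase Ptpn1 (0.16) were the next by p after Nedd4.

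Of 5 tested RAS proteins and their GTPase activators, 0 passed, with log2 changes of -0.22 for Nf1, 0.08 for Hras and -0.08 for Nras among them. Of 4 genes for factors known to act on receptor promoters, 0 passed. Foxo1, which raises Insr in other settings, stood at 14.9 ± 4.80 in the labelled knockout libraries and 10.6 ± 1.65 in wild type (SD, n = 3 each; log2 change 0.42, paired limma adjusted p = 0.221). Sp1 (-0.14), Hmga1 (0.13) and Foxo3 (-0.04) had smaller changes.

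**Figure D5:**
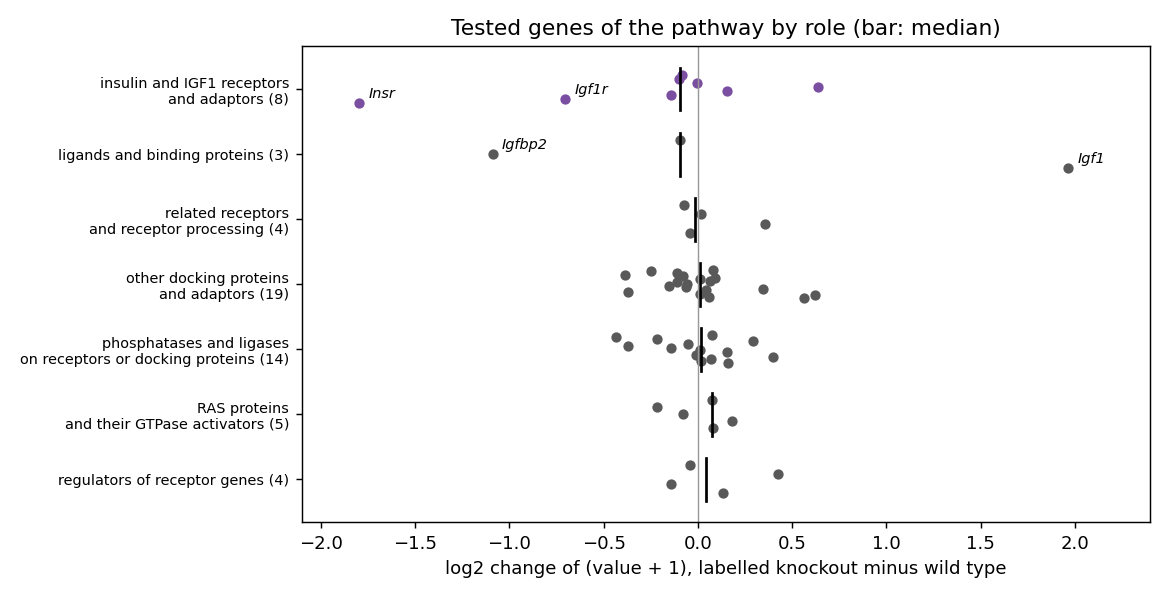
Difference of log2(value + 1) between labelled knockout and wild type (horizontal axis, labelled knockout minus wild type) of the 8 tested members (purple) and 49 other tested genes of the route (grey) by role, with a bar for each median and the number of genes in brackets. Insr at -1.80 lay farthest to the left, Igf1 at 1.96 lay farthest to the right without passing, and the medians lay between -0.09 and 0.07.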

How the data were processed

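The authors' deposited table holds a signal, which the values show to be each gene's reads scaled by an effective library size. It is named FPKM, but each value is a whole multiple of 1 step per library, so no length scaling was found; 100% of values were whole reads within 0.01 reads. Per the submitters' processing notes, CASAVA, STAR 2.4.2a, HTSeq, edgeR and mm9 were used, in roles not given. The table holds 21448 genes.

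Values were compared as log2(value + 1) with limma 3.58.1 (R 4.3.3, trended prior, two-sided, Benjamini-Hochberg over 10533 genes with a mean of at least 1, threshold 0.05). Replicate numbers were taken to pair libraries, since, across genes, equal numbers deviated together from their groups (r = 0.73, 0.73 and 0.84). The labels do not state a pairing, so the unpaired fit was planned as the main test and the paired fit as an alternative. edgeR 4.0.16 (quasi-likelihood) and DESeq2 1.42.0 were run on recovered reads. The limma and edgeR fits were tested on simulated data, and DESeq2 was not. Simulated libraries of equal number shared their means, so that test cannot speak for the pairing. All libraries differed from each other by more than counting noise (lowest chi-square per degree of freedom 49.5). Exon lengths and overlaps came from GENCODE M21, a build other than mm9. Plots used Python 3.11.15 and matplotlib 3.10.9.

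Members and lists were chosen with earlier results of these data known. Named were all members, Prdm15, of each list up to 4 genes by lowest unpaired p, any past the threshold, and the 5 genes closest to Insr and to Igf1r by Pearson r, clone names left out. Cell type markers and genes at the edge of detection were added where a result needed them. Some genes that this rule names are not reported here.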

Additional observations from a re-analysis of the deposited data

How the results depend on the processing

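The unpaired limma fit called 0 members lower and 0 higher, and 1 gene lower and 0 higher over all genes. With the replicate block (the paired fit) the counts were 2 members lower, and 78 genes lower and 14 higher. edgeR with the replicate block gave 2 members lower, 34 genes lower and 5 higher, and DESeq2 with it 2 members lower, 1 higher, 420 genes lower and 318 higher. DESeq2 without it gave 1 member lower, 79 genes lower and 31 higher; edgeR without it gave 0 genes lower. A minimum mean of 5 gave 1 member and 2 genes lower, DESeq2 size factors 1 member and 3 genes lower. A pseudocount of 0.25 or 4, no filter, quantile normalization, or leaving out labelled knockout replicates 2 and 3 gave 0 genes lower, as did leaving out any 1 library (0 to 0). The paired fit gave 2 members lower, 354 genes lower and 486 higher without pair 1, and 0 genes lower without pair 2 or pair 3. The cause of these differences was not tested. Insr, Igf1r and Shc1 kept their sign in all 22 alternatives. The change of Insr ran from -1.94 to -1.54 and that of Igf1r from -0.84 to -0.56. Insr minus Igf1r ran from -1.28 to -0.91 with 1 library left out.

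Changes that did not pass in limma turned sign under some settings, and the cause was not tested. Igf2r ran from -0.35 to 0.092 with 1 library left out and was 0.020 in the paired fit without pair 1 and -0.61 without labelled knockout replicates 2 and 3. Irs2 ran from -0.75 to 1.12 with 1 library left out, and was -0.0052 in the paired fit without pair 1 and -1.32 without labelled knockout replicates 2 and 3. Grb10 ran from -0.13 to 1.36 with 1 library left out and was -0.81 without labelled knockout replicates 2 and 3, where Sos1 was 0.050. Grb2 ran from -0.088 to 0.10 with 1 library left out. It was 0.052 with equal totals, 0.030 with quantile normalization, 0.0069 with DESeq2 size factors, 0.0166 in edgeR, 0.0207 in edgeR with the replicate block, 0.0157 in DESeq2, 0.0203 in DESeq2 with the replicate block, and 0.11 in the paired fit without pair 3. Leaving out labelled knockout replicates 2 and 3 moved the median of all genes to -0.11 and left 1 labelled knockout library, assumed to vary like the wild type ones. Depth limits Irs1, with 6 to 17 reads per library.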
